A study of Arabidopsis thaliana with 72 samples.

Results

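The receptor-like protein family of Arabidopsis thaliana was followed through leaves in which plasmodesmata, the pores through the wall between adjoining cells, were closed on demand. Members were all genes whose symbol was RLP or AtRLP followed by a number, which gave 54 of the 33602 genes in the count matrix. Of these, 49 were among the 21241 genes that passed the filter on low counts and were tested. The rule used names and no measured value. CLAVATA2 and TOO MANY MOUTHS, which belong to the same class of receptor, carry other symbols in the matrix and were not included.

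Receptor-like proteins sit in the plasma membrane and have an outer domain, in most members built of leucine-rich repeats, and a short tail but no kinase of their own. The ones with known ligands detect fragments of microbes outside the cell and signal through the adaptor kinase SOBIR1 and co-receptor kinases such as BAK1. Others act in development or in sensing the cell wall.

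The study compared 3 genotypes, each given estradiol or a mock and sampled 12, 24, 48 and 72 h later, with 3 libraries for each of the 24 combinations, 72 in all. Col-0 is the wild type, and the LexA::PD-Plug line (PD-plug) and the LexA::icals3m line (icals3m) carry constructs that estradiol switches on and that close plasmodesmata. Plants had grown on plates for 5 weeks with 10 h of light, and their leaves were painted with 20 µM β-Estradiol 17-acetate or 0.1% DMSO, both with the wetting agent Silwet L-77. Each library came from 2 leaves from 4 plants, and the labels call the replicates biological. Col-0 was painted with the inducer as well, so the difference between a line's response and that of Col-0 sets aside what estradiol did without a construct. The promoter and cell types that drive the estradiol-activated factor, and whether each line is 1 transformant, are not given in the sources used here.

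Library totals ranged from 33207020 to 55367880 counts, with a median of 47474144.5. The icals3m construct was visible as CALS3, a callose synthase gene, at 5547 ± 133 CPM (counts scaled by library size; SD, n = 3) 12 h after estradiol in icals3m, whereas Col-0 and PD-plug libraries lay between 79.2 and 121. By 72 h the icals3m estradiol libraries had 1447 to 1682 CPM. The icals3m mock libraries had 168 to 285 CPM, so CALS3 was raised there without inducer. Over the mean of 4 times it was 1.19 above Col-0 mock on the log2 scale (edgeR adjusted p = 5.099e-36). A second deposited table, the STAR-aligned matrix, also counts the fluorescent protein mCherry, which the labels do not tie to a line and which is given here because of its values. In PD-plug mCherry had 77044 to 694617 counts in the 12 estradiol libraries and 138 to 3261 in the 12 mock libraries. Its highest count was 5 in Col-0 and 20 in icals3m. The first estradiol replicate of PD-plug at 48 h stood apart: it had the lowest total, and its total was 1.37 times that of the STAR-aligned matrix against 1.90 to 2.07 times in the other libraries, so the calls made in PD-plug at 48 h are given with and without it. Leaf mesophyll markers were high everywhere (summed level of 4 genes 15473 to 54526 CPM), and the root hair markers COBL9, EXPA7 and RHD6 were at 0 in all 72 libraries. In whole leaves, fewer cells of a type and less RNA per cell cannot be told apart.

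The family occupied a wide range of levels. By mean CPM per kilobase of transcript, AtRLP54 was highest at 20.9, followed by AtRLP4 at 19.5 and AtRLP47 at 16.2. At the other end AtRLP5 had no count in any library, AtRLP25 averaged 0.0013 and AtRLP11 0.0017 CPM per kilobase. Of the 5 untested members, which also include AtRLP3 and AtRLP15, AtRLP3 (known for resistance to Fusarium wilt) was at 0 in 70 of 72 libraries and reached 10 counts at most. With each count taken as a molecule, a count of 0 allows up to 3 counts in a library. These members were therefore not detectable at this depth rather than absent. In the TAIR10.1 annotation 52 members are protein-coding, AtRLP18 and AtRLP49 are transcribed pseudogenes, 32 have a single exon, and 36 lie in 13 clusters with at most 10 other genes between neighbours. For 9 members over 10% of their 50-base words recur elsewhere in the transcripts, with the highest share, 31.6%, in AtRLP42, so reads of these could be split between copies.

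Members differed most often from the wild-type response in PD-plug leaves 48 h after estradiol. Within that line 10 of 49 members rose and 1 fell (adjusted p under 0.05, edgeR quasi-likelihood test, Benjamini-Hochberg over all genes), which is 22.4% of the members against 13.3% of all genes tested (16.3% against 9.06% without the library that stood apart). Measured as the difference from the Col-0 response, again 10 members rose more and 1 fell, 22.4% of the members against 5.56% of all genes. For increases alone the background was 2.26% of all genes. The median log2 difference was 0.34 over the 49 members and -0.01 over all genes, with 34 members above 0 and 14 below. Without the library that stood apart 8 members rose and none fell, 16.3% against 3.32% of all genes (1.32% for increases), and the median over members was 0.26.

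AtRLP23 (AT2G32680, chr2:13859769-13862614, minus strand), the receptor for the nlp20 peptide shared by microbial NLP proteins, stood at 19.5, 15.3 and 10.1 CPM in the PD-plug estradiol libraries at 48 h. The mock libraries of the same line had 1.20, 0.715 and 0.757 CPM. Every estradiol library was above every mock library, while the Col-0 groups overlapped: its estradiol libraries had 1.06, 0.574 and 0.778 CPM and its mock libraries 0.485, 0.395 and 0.759. The level rose by 4.07 on the log2 scale within PD-plug (edgeR adjusted p = 3.586e-08), and by 3.50 ± 0.73 (SE) more than in Col-0 (edgeR adjusted p = 0.001215). Without the library that stood apart the second value was 3.26 and still passed the test.

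AtRLP34 (AT3G11010, chr3:3450496-3453985, minus strand) had 41.4, 26.7 and 19.6 CPM after estradiol in PD-plug at 48 h. Its mock libraries had 4.76, 5.60 and 4.30 CPM, and the Col-0 libraries lay between 3.63 and 5.33 CPM under either treatment. All 3 induced libraries exceeded all 9 others, and the rise was 2.57 ± 0.31 on the log2 scale beyond that of Col-0 (edgeR adjusted p = 2.438e-07; 2.23 without the library that stood apart). AtRLP34 overlaps the gene AT3G11000, whose own mean in PD-plug at 48 h was 0.273 CPM with estradiol and 0 with mock, and whether counting used strand is not given in the sources used here.

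AtRLP37 and AtRLP38 are neighbours on chromosome 3 (chr3:8222364-8224871 and chr3:8227222-8229619, minus strand), with AtRLP36 close by at chr3:8174341-8176911 on the plus strand. AtRLP38 went from 0, 0.337 and 0.378 CPM in mock to 3.73, 2.51 and 2.44 CPM in estradiol libraries of PD-plug at 48 h, while the 6 Col-0 libraries lay between 0 and 0.539 CPM. The ranges did not overlap, and the difference from the Col-0 response was 5.59 ± 0.94 (edgeR adjusted p = 6.172e-05; 5.37 without the library that stood apart, still called). In Col-0 the estradiol libraries (0.11, 0 and 0.219 CPM) were below the mock ones, which adds to that difference.

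AtRLP37 had 7.06, 3.09 and 2.68 CPM with estradiol against 1.06, 1.39 and 1.75 CPM with mock. AtRLP36 had 4.49, 2.85 and 1.48 CPM against 1.73, 1.20 and 0.993, so its groups overlapped. Both calls rest on the library that stood apart: without it the edgeR adjusted p for the difference from Col-0 was 0.1138 for AtRLP37 and 0.05439 for AtRLP36.

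AtRLP41 and AtRLP42 form another neighbouring pair on chromosome 3 (chr3:9110057-9112936 and chr3:9116684-9119804, minus strand). AtRLP42 recognises endopolygalacturonases, fungal enzymes that cut pectin. Its estradiol libraries in PD-plug at 48 h had 20.8, 14.9 and 13.1 CPM and its mock libraries 4.12, 6.23 and 5.56 CPM, with no overlap; Col-0 lay between 4.53 and 7.51 CPM. AtRLP41 had 20.1, 8.47 and 7.42 CPM with estradiol and 2.02, 1.96 and 1.4 CPM with mock. Beyond Col-0 the rise was 1.24 ± 0.26 for AtRLP42 (edgeR adjusted p = 0.0011) and 2.69 ± 0.49 for AtRLP41 (edgeR adjusted p = 0.0001838). Both kept the call without the library that stood apart, at 1.03 and 2.1.

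AtRLP43 (AT3G28890, chr3:10895977-10898900, minus strand) had no count in the 3 PD-plug mock libraries at 48 h and 65, 34 and 28 counts in the estradiol libraries. Set against a floor of 3 counts per library, the level was 16.6-fold higher. The floor takes 1 count as 1 molecule, and small counts were in excess at multiples of 4, so a true lower bound may be smaller. In Col-0 at 48 h the estradiol libraries had no count and the mock mean was 0.036 CPM, which adds to the fitted difference from Col-0. That difference passed the test (edgeR adjusted p = 0.01203). Without the library that stood apart the ratio to the floor was 9.60-fold and the difference still passed (edgeR adjusted p = 0.03385). It was lost in 1 of 12 fits with 1 library left out, that without the first Col-0 mock replicate. With all counts divided by 4 and rounded up, the call was lost (edgeR adjusted p = 0.1511, the highest of 6 alternatives). AtRLP49, annotated as a transcribed pseudogene, rose from 8.53, 7.55 and 7.21 to 20.9, 16.6 and 14.0 CPM, without overlap, and differed from the Col-0 response by 1.27 (1.11 without the library that stood apart, still called). AtRLP46 and AtRLP45, which rank below the 8 largest differences and were chosen for naming after their values were seen, differed from the Col-0 response by 1.16 ± 0.26 and -0.60 ± 0.19. AtRLP46 kept the call at 0.96 when the library that stood apart was left out, and AtRLP45 lost it (edgeR adjusted p = 0.1111).

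**Figure D1:**
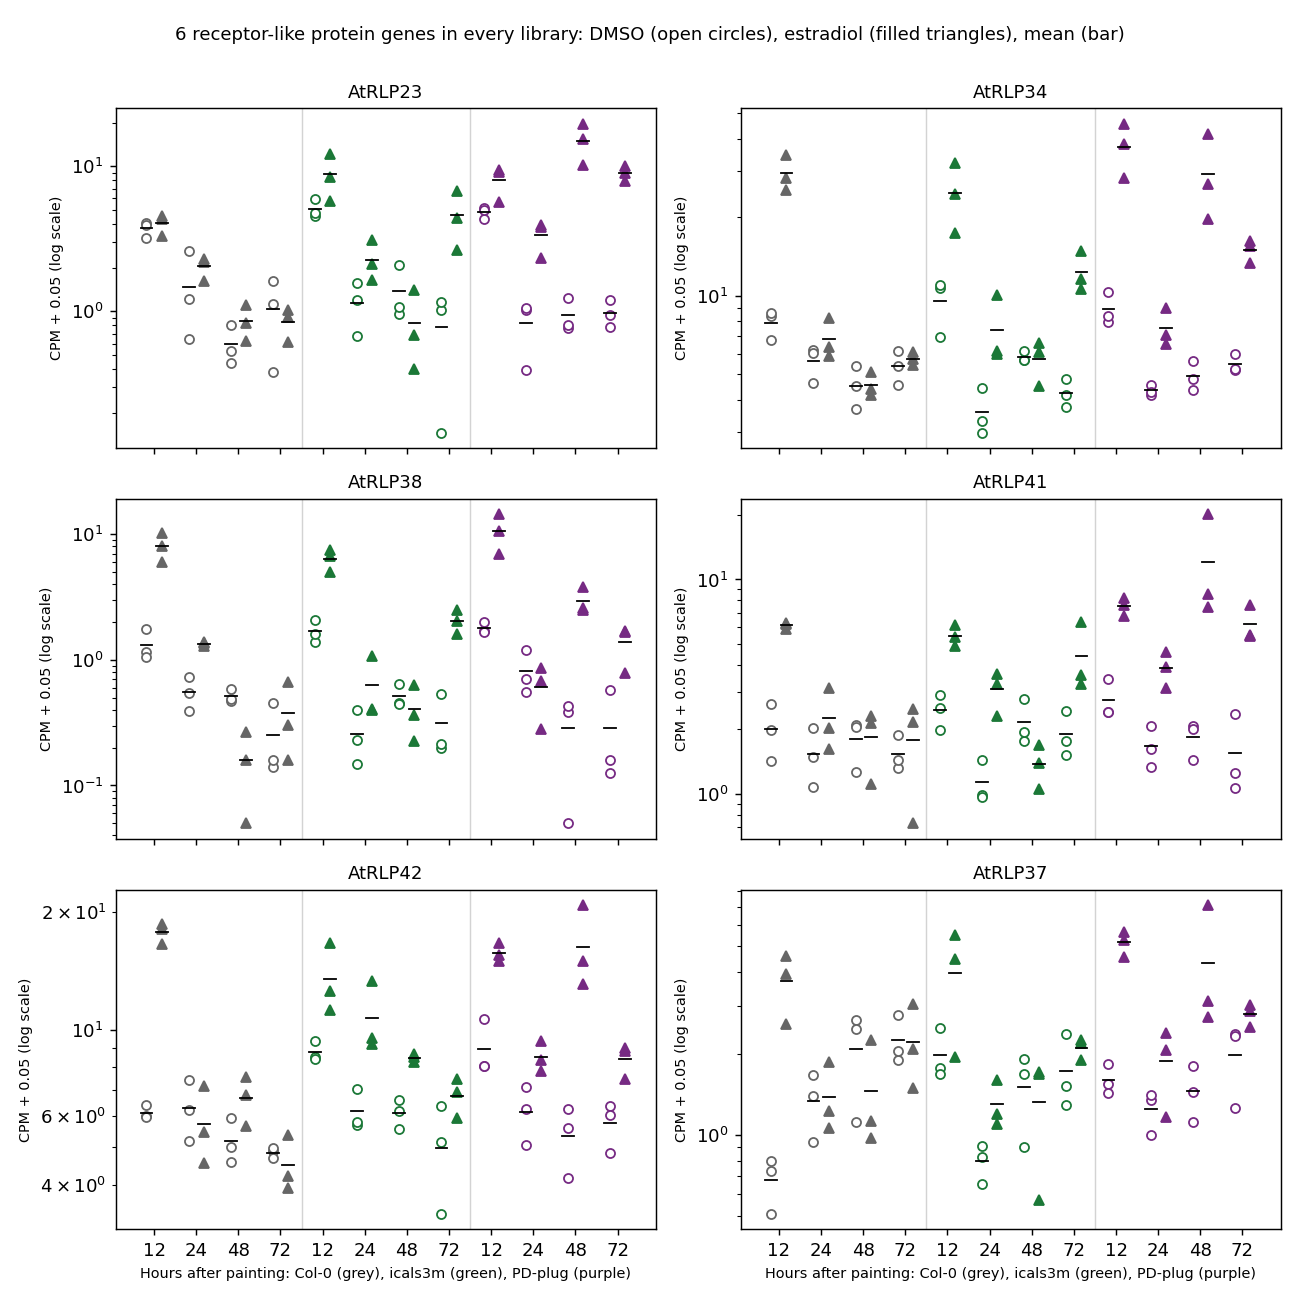
Level of 6 members in all 72 libraries, by genotype and hours after treatment; the y axis is CPM plus 0.05 on a log scale, open circles are DMSO libraries, filled triangles estradiol libraries, and bars are group means (n = 3). For AtRLP23 the estradiol libraries lie above the mock libraries in PD-plug at all 4 times and in icals3m at 24 and 72 h, while AtRLP34, AtRLP38, AtRLP41, AtRLP42 and AtRLP37 also separate at 12 h in Col-0.

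Leaf markers moved in the same libraries. At 48 h in PD-plug, 4 of 4 mesophyll markers fell relative to the Col-0 response (RBCS1A by 0.51, CA1 by 0.79, LHCB1.3 by 0.40 and RCA by 0.44 on the log2 scale), and their summed level was 36887 to 42031 CPM with estradiol against 45566 to 46988 with mock. In Col-0 at 48 h the sum was 49868 to 53273 CPM with estradiol and 41788 to 46211 with mock. LHCB1.3 lost the call relative to Col-0 when the library that stood apart was left out, and the other markers kept it. Within PD-plug 3 of 4 markers were called lower. LHCB1.3 was not, at 0.24 on the log2 scale without the library that stood apart. The part of these markers in the result for the receptor-like proteins was not tested.

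Fewer members were called in PD-plug at 24 and 72 h than at 48 h. At 24 h only AtRLP23 and AtRLP49 rose within the line among the 49 members tested, 4.08% against 0.49% of all genes. AtRLP23 had 3.87, 3.74 and 2.27 CPM with estradiol and 0.344, 0.975 and 1.01 with mock, without overlap. Its call (edgeR adjusted p = 0.02814) was lost in 5 of 6 fits with 1 library left out, and both calls were lost in a fit of the 6 compared libraries alone. The difference from Col-0 was called for 0 members at 24 h by edgeR, against 0.033% of all genes, with 7 members higher and 1 lower at an unadjusted p under 0.05.

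At 72 h AtRLP23, AtRLP34, AtRLP38 and AtRLP41 rose within PD-plug, 8.16% of members against 2.65% of all genes. AtRLP23 had 7.86, 9.0 and 9.99 CPM with estradiol and 0.734, 0.897 and 1.15 CPM with mock. AtRLP34 had 15.4, 13.3 and 16.2 CPM against 5.17, 5.20 and 5.92. The AtRLP23 libraries were all below the lowest of the 48 h libraries, and neither gene's groups overlapped. These 2 members also differed from the Col-0 response, at 3.58 ± 0.70 (edgeR adjusted p = 0.01032) and 1.37 ± 0.31 (edgeR adjusted p = 0.04967); that is 4.08% of members against 0.0942% of all genes, 20 genes in number. The AtRLP34 call was lost in 11 of the 12 fits that left out 1 library. No member was called without the first Col-0 estradiol, the third Col-0 mock or the first PD-plug mock replicate. AtRLP23 therefore lost its call in those fits.

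In icals3m fewer members were called beyond the Col-0 response. At 48 h 1 member was higher and 1 lower relative to Col-0, 4.08% against 13.4% of all genes. AtRLP1, which recognises a Xanthomonas molecule named eMax, had 5.37, 6.41 and 8.46 CPM with estradiol and 6.17, 3.50 and 6.32 with mock, so the groups overlapped. In Col-0 it was lower with estradiol (6.04, 6.14 and 6.51 against 8.90, 7.01 and 9.11 CPM), and the difference between genotypes was 0.77 ± 0.25 (edgeR adjusted p = 0.02753; 0.4039 in the STAR-aligned matrix, the highest of 6 alternatives). AtRLP26 had 7.56, 9.79 and 9.24 CPM with estradiol and 11.5, 14.1 and 10.8 with mock, without overlap, a difference from Col-0 of -0.64. AtRLP16 fell from 3.17, 2.18 and 2.35 to 0.961, 1.27 and 0.823 CPM within icals3m, where 1 member rose and 5 fell at 48 h, 12.2% of members against 18.3% of all genes.

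At 72 h in icals3m 8 members rose and 2 fell within the line, 20.4% against 21.5% of all genes, so the share is near the background. AtRLP23 had 6.69, 4.38 and 2.59 CPM with estradiol and 0.977, 1.11 and 0.0963 with mock, without overlap. AtRLP34 had 14.8, 11.6 and 10.5 CPM against 3.70, 4.73 and 4.12, also without overlap. Relative to Col-0 these rose by 2.92 ± 0.70 (edgeR adjusted p = 0.002969) and 1.46 ± 0.31 (edgeR adjusted p = 0.0007111).

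AtRLP43 was the third member called against Col-0 at 72 h in icals3m (edgeR adjusted p = 0.01219). It had 12, 0 and 11 counts after estradiol and 0 in the mock libraries. Against the same floor that was 2.38-fold higher, and the floor may be too low, as said above. The library at 0 overlaps the mock group, and the call was lost with counts divided by 4 (edgeR adjusted p = 0.0666, the highest of 6 alternatives). In Col-0 at 72 h the estradiol libraries had no count and the mock mean was 0.101 CPM, which adds to the difference. Those 3 members are 6.12% of the 49, against 11.3% of all genes. AtRLP38 (2.42, 1.54 and 1.98 against 0.150, 0.165 and 0.482 CPM) and AtRLP41 (6.28, 3.54 and 3.21 against 1.71, 1.46 and 2.38 CPM) rose within icals3m but their differences from Col-0 were not called.

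The mesophyll markers were lower here too. Their sum in icals3m at 72 h was 23781 to 25757 CPM with estradiol and 35867 to 37883 with mock, and 4 of 4 fell relative to Col-0 at both 48 and 72 h. Within icals3m 3 of 4 were called lower at 48 h and 4 of 4 at 72 h. SUC2, a marker of phloem companion cells, fell by 0.31 at 48 h and 0.32 at 72 h relative to Col-0. AHA3, the other marker of those cells, was not called at either time, at 0.07 and -0.20. The part of all these markers in the members' changes was not tested.

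The lines were compared directly. At 48 h 11 members had a lower response in icals3m than in PD-plug and none a higher one, 22.4% of the members against 5.16% of all genes (2.46% in that direction). AtRLP23 differed by -4.81, AtRLP38 by -3.95, AtRLP41 by -3.40 and AtRLP34 by -2.60 on the log2 scale. In icals3m at 48 h AtRLP23 had 0.350, 0.633 and 1.36 CPM with estradiol and 0.906, 1.03 and 2.03 with mock. Without the library that stood apart 7 of the 11 kept the call, and AtRLP16, AtRLP26, AtRLP36 and AtRLP37 lost it, which leaves 14.3% of members against 4.09% of all genes. The 4 differences above were then -4.57, -3.73, -2.81 and -2.26.

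At 72 h no member differed between the lines by edgeR, against 5.35% of all genes, with 1 lower at an unadjusted p under 0.05; for AtRLP23 the difference was -0.66 ± 0.67 and for AtRLP34 0.09 ± 0.30. Of the 10 members that rose in PD-plug at 48 h, 6 were among the 8 that rose in icals3m at 72 h, 60% of the first list and 75% of the second: AtRLP23, AtRLP34, AtRLP36, AtRLP38, AtRLP41 and AtRLP43. Over all genes tested, 394 rose in both comparisons, 32.8% of the first list and 17.9% of the second. These comparisons share no library. AtRLP36 left the overlap when the library that stood apart was omitted, and in icals3m at 72 h the AtRLP36 and AtRLP43 calls were each lost in 5 of 6 fits with 1 library left out. At 12 and 24 h the lines did not differ for any member by edgeR (backgrounds 1.19% and 0.358%), with 2 and 7 members at an unadjusted p under 0.05.

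**Figure D2:**
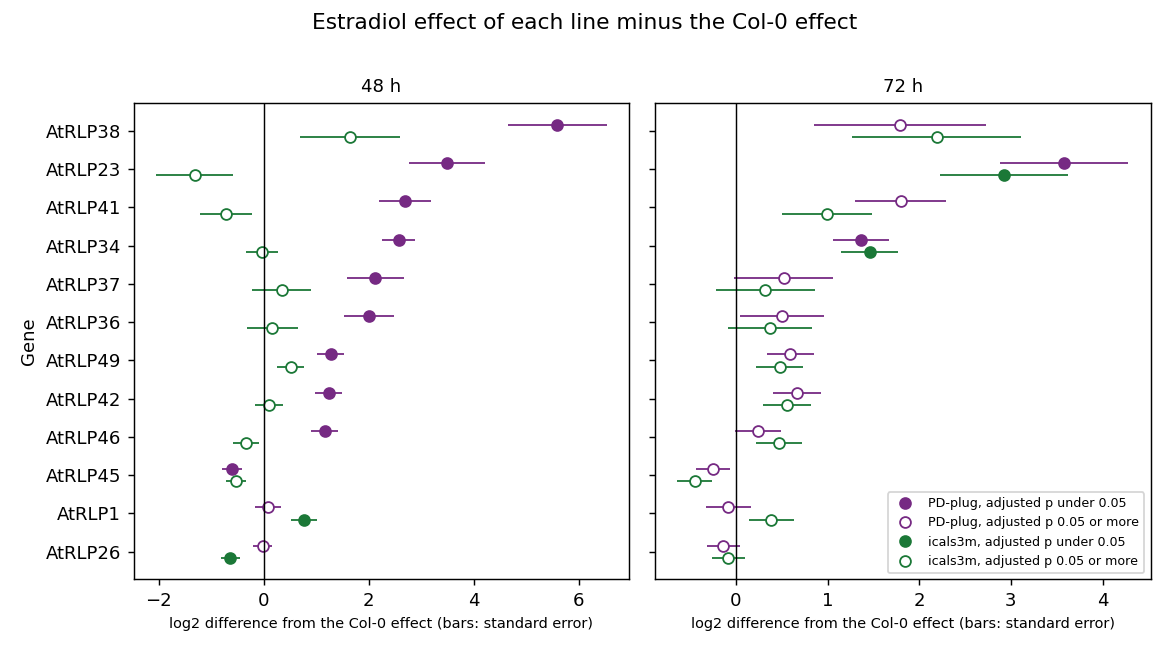
Response of each line minus the response of Col-0 for 12 members at 48 and 72 h, as log2 difference with its standard error; filled points passed the test (edgeR adjusted p under 0.05). At 48 h the filled points are mostly PD-plug, with AtRLP23 at 3.50, and at 72 h AtRLP23 and AtRLP34 are filled in both lines.

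At 12 h part of the family changed in all 3 genotypes, Col-0 included. In Col-0, estradiol raised 13 members and lowered 3 at 12 h, 32.7% of members against 38.6% of all genes. AtRLP34 had 25.4, 34.7 and 28.1 CPM with estradiol and 6.70, 8.29 and 8.56 with mock, without overlap (1.90 on the log2 scale, edgeR adjusted p = 1.693e-10). AtRLP38 had 5.91, 10.1 and 7.95 CPM against 1.10, 1.00 and 1.7, and AtRLP42 had 18.0, 16.5 and 18.5 CPM against 5.94, 5.92 and 6.36. AtRLP34, AtRLP37, AtRLP38, AtRLP41 and AtRLP42 also rose at 12 h in icals3m and PD-plug. The summed mesophyll markers in Col-0 at 12 h were 22547 to 24550 CPM with estradiol and 19558 to 21264 with mock. Of these 2 of 4 were called higher, and 1 of 3 guard cell markers was higher. A list of 8 defence output genes, described below, summed to 387 to 675 CPM in these mock libraries and 82.2 to 96.2 with estradiol. Mock libraries at 12 h had 138 to 243 CPM in icals3m and 232 to 345 in PD-plug. The part of these genes was not tested. AtRLP23 was not called at 12 h in any genotype, with means of 4.02 ± 0.67 CPM (SD, n = 3) with estradiol and 3.69 ± 0.47 with mock in Col-0. In PD-plug its estradiol libraries at 12 h lay above the mock ones, at 8.01 ± 2.08 against 4.78 ± 0.43 CPM, but the change did not pass (edgeR adjusted p = 0.2063).

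AtRLP30, the receptor for a small secreted protein of the fungus Sclerotinia, fell in Col-0 at 12 h, from 22.4, 20.0 and 26.9 CPM to 9.49, 9.01 and 9.17. AtRLP32, which recognises a bacterial translation initiation factor, rose from 5.30, 3.86 and 3.51 to 8.79, 8.04 and 11.0 CPM. The groups did not overlap for either gene (log2 changes of -1.32 and 1.14, edgeR adjusted p = 0.003153 and 9.017e-06). AtRLP7 fell from 3.66, 2.25 and 3.28 to 0.173, 0.437 and 0.510 CPM, a call lost in the STAR-aligned matrix and in 5 of 6 fits with 1 library left out.

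In PD-plug 11 members rose at 12 h and none fell, 22.4% against 27.1% of all genes, and in icals3m 6 rose, 12.2% against 17.2%. Relative to Col-0 the exceptions were few: AtRLP42 responded less in icals3m (-0.92, edgeR adjusted p = 0.02792; 2.04% of members against 3.16% of all genes), a call lost in the STAR-aligned matrix and in 7 of 12 fits with 1 library left out, and AtRLP49 and AtRLP47 less in PD-plug (-0.88 and -0.66; 4.08% against 8.3%). In that last comparison 3 of 4 mesophyll markers fell too, and their part was not tested. At 24, 48 and 72 h the Col-0 response was called for 0 members by edgeR, against 0.984%, 6.67% and 0.0141% of all genes, with 5, 8 and 5 members at an unadjusted p under 0.05; DESeq2 called 1 member at 48 h. In icals3m at 24 h 6 members rose, 12.2% against 6.48% of all genes, with AtRLP41 largest at 1.48, but relative to Col-0 edgeR called 0 (background 0.259%; 9 higher and 1 lower at an unadjusted p under 0.05).

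**Figure D3:**
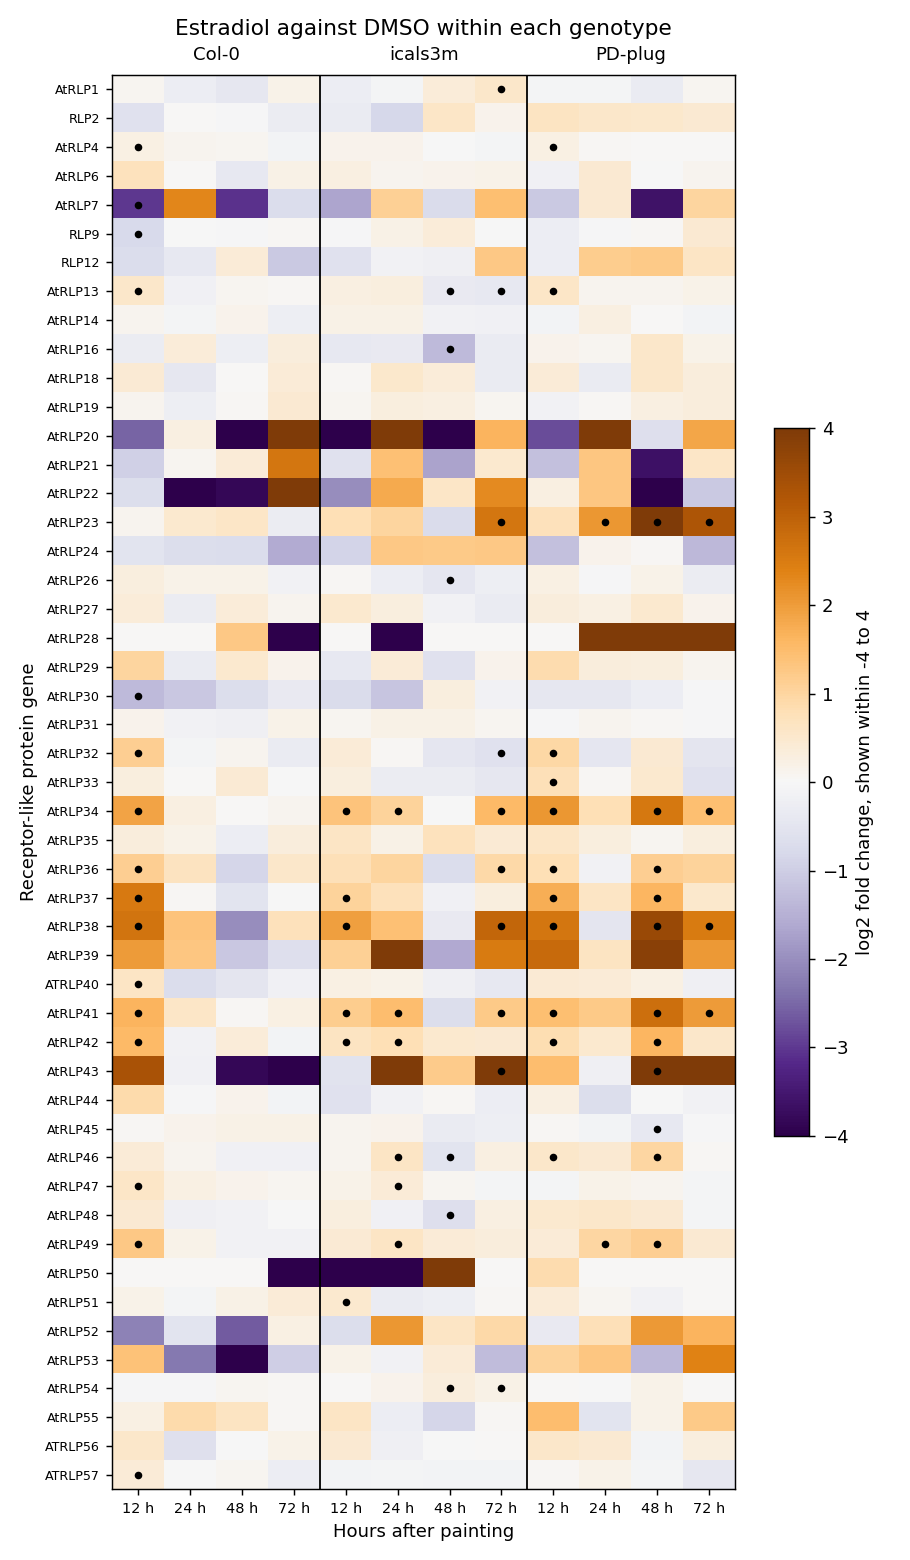
Log2 fold change of estradiol over DMSO for the 49 tested members (rows) in 12 comparisons (columns, by genotype and hours), on a colour scale limited to -4 and 4; black dots mark changes that passed the test. The dots gather at 12 h in all genotypes, including 16 in Col-0, and at 48 h in PD-plug, and Col-0 has none after 12 h.

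**Figure D4:**
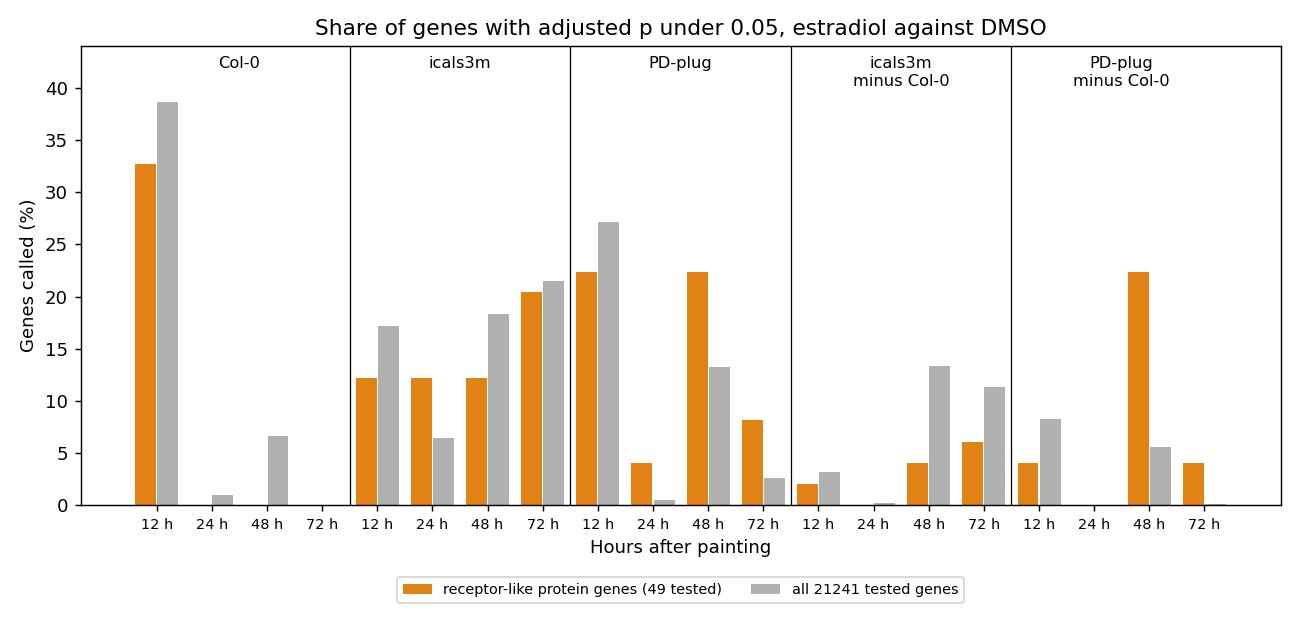
Percent of tested features called in 20 comparisons, with the 49 members in orange and all 21241 genes in grey. The members' share is above that of all genes at 48 h in PD-plug (22.4% against 5.56% for the difference from Col-0) and near or below it at 12 h. It is also above at 24 h within icals3m (12.2%) and at 24 h and 72 h within PD-plug (4.08% and 8.16%). The same holds at 72 h for PD-plug against Col-0 (4.08%).

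Several members with known roles showed no called difference between PD-plug and Col-0 at 48 h. The log2 differences were 0.08 ± 0.25 for AtRLP1, 0.41 ± 0.57 for AtRLP30, 0.34 ± 0.29 for AtRLP32, 0.56 ± 0.32 for AtRLP18 and -0.17 ± 0.72 for AtRLP44, a cell wall sensor that acts through brassinosteroid signalling. AtRLP44 stayed between 0.108 and 2.44 CPM over all libraries, so only large changes could be seen. AtRLP52, linked to powdery mildew resistance, had 1.57, 0.170 and 0.360 CPM with estradiol and 0, 0.400 and 0.0709 with mock in PD-plug at 48 h, overlapping groups with a difference of 4.71 ± 1.67 that did not pass (edgeR adjusted p = 0.09204).

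AtRLP51, also known as SNC2 and able to switch on defence when mutated, differed between genotypes without inducer. Mock libraries at 48 h had 5.07, 6.0 and 7.02 CPM in Col-0, 14.5, 14.9 and 15.1 CPM in icals3m and 12.3, 12.0 and 15.1 CPM in PD-plug, so both lines were above Col-0 at that time. At 12 h the icals3m mock libraries (8.87, 9.66 and 9.34 CPM) overlapped those of Col-0 (7.25, 7.69 and 9.79). Over the mean of 4 times it was higher by 0.86 ± 0.08 in icals3m (edgeR adjusted p = 6.521e-13) and by 0.60 ± 0.08 in PD-plug (edgeR adjusted p = 2.713e-07). Both contrasts use the same Col-0 libraries. CALS3 was also higher in icals3m mock leaves, by 1.19, and its part was not tested. Without inducer 3 members were higher and 6 lower in icals3m (18.4% of members against 19.1% of all genes), and 2 higher and 1 lower in PD-plug (6.12% against 6.18%), all by less than 2-fold.

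Levels of many members differed between sampling times without inducer. In Col-0 mock leaves 8 members were higher and 18 lower at 24 h than at 12 h, 53.1% against 62.7% of all genes. AtRLP30 fell from 22.4, 20.0 and 26.9 to 3.39, 2.80 and 2.72 CPM, and AtRLP52 from 12.2, 6.60 and 8.46 to 0, 0.192 and 0.396. RLP9 fell from 24.1, 11.2 and 12.8 to 1.21, 0.961 and 1.26 CPM. In the other direction AtRLP49 rose from 5.56, 5.75 and 4.41 to 23.5, 27.8 and 21.5 CPM and AtRLP44 from 0.183, 0.136 and 0.523 to 1.36, 1.45 and 1.24. The groups did not overlap in any of these 5 genes. The 12 h mock libraries are also those of the Col-0 estradiol response at 12 h, so both results rest on them. Defence output genes summed to 387 to 675 CPM there and 41.6 to 57.2 in mock at 24 h, and their part was not tested. All 4 mesophyll markers rose between these times, with sums of 19558 to 21264 CPM at 12 h and 48864 to 51737 at 24 h, and of 3 guard cell markers 1 rose and 2 fell; their part was not tested.

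Between 24 and 48 h 5 members were higher and 6 lower, 22.4% against 27.1% of all genes, and between 48 and 72 h 3 were lower and none higher, 6.12% against 12.8%. The hour of painting is not stated. The 24, 48 and 72 h samples lie whole days apart, whereas between 12 and 24 h time of day and time since painting cannot be told apart.

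**Figure D5:**
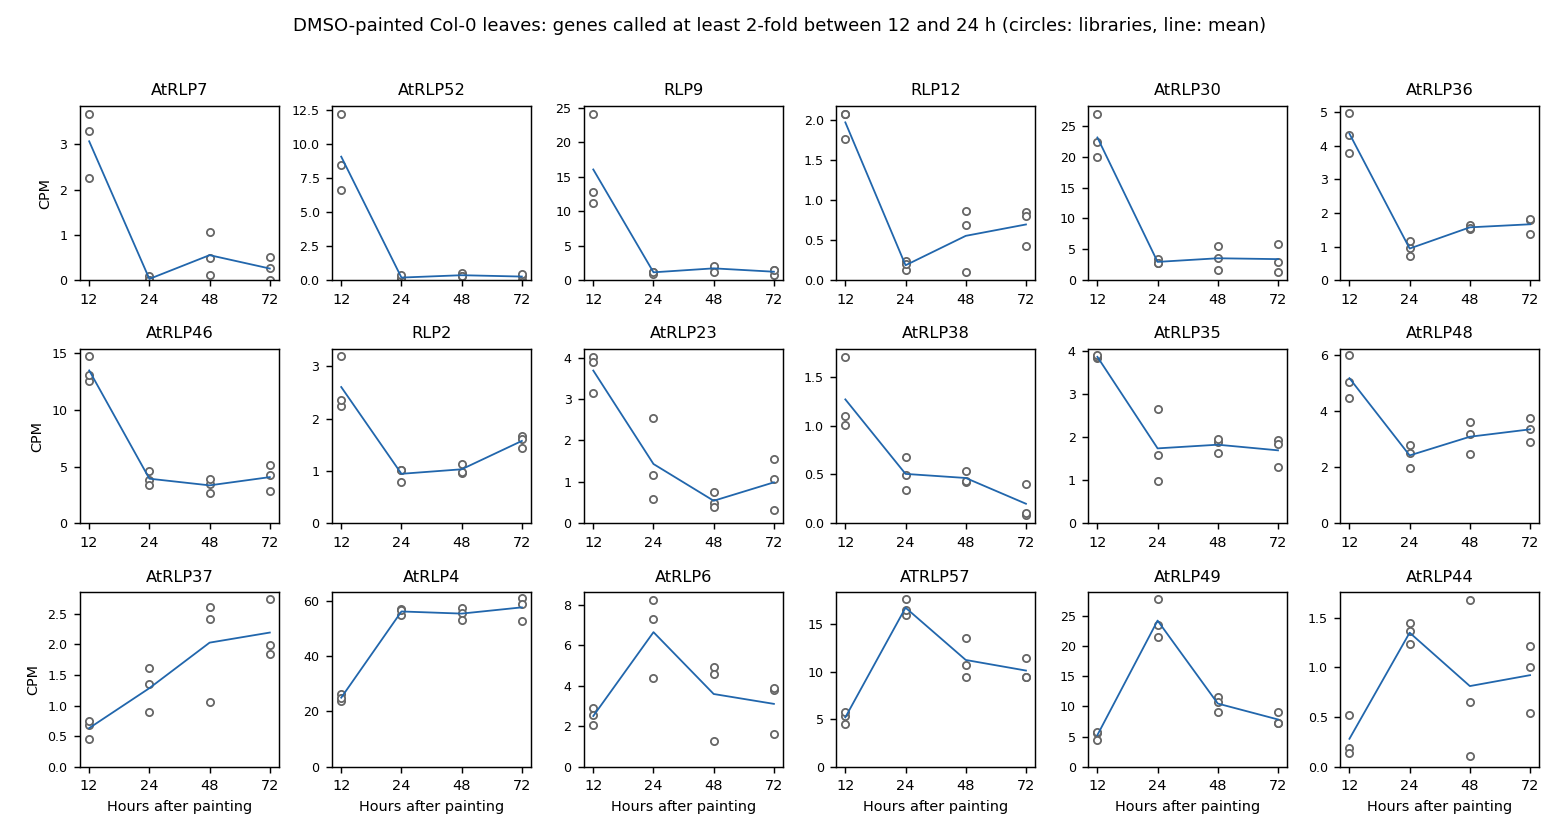
Level of 18 members in Col-0 DMSO libraries at 12, 24, 48 and 72 h, one panel each, in CPM on a linear axis from 0; circles are libraries (3 per time) and the line joins the means. These members were called at least 2-fold between 12 and 24 h. AtRLP7, AtRLP52, RLP9, RLP12 and AtRLP30 fall steeply after 12 h, and AtRLP49, ATRLP57 and AtRLP44 rise.

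Signalling partners of the receptors were followed as a list of 18 genes. At 48 h in PD-plug 7 of 18 had a higher response than in Col-0 and none a lower one: SOBIR1, BKK1, BIR1, PBL30, EDS1, PAD4 and ADR1-L2. That is 38.9% of the list against 5.56% of all genes. Without the library that stood apart PAD4 and ADR1-L2 lost the call and 5 kept it. In that fit SOBIR1, BKK1, BIR1, EDS1 and PAD4 were called higher within PD-plug. PBL30 (0.22, edgeR adjusted p = 0.4621) and ADR1-L2 (0.28, edgeR adjusted p = 0.263) were not called within the line. SOBIR1, the adaptor kinase for receptor-like proteins, had 90.6, 66.2 and 56.8 CPM with estradiol and 33.7, 21.2 and 23.6 with mock in PD-plug, and 14.4 to 20.9 CPM in Col-0 under either treatment. Its estradiol libraries were above every other library at 48 h, with a rise of 1.53 ± 0.27 beyond Col-0 (edgeR adjusted p = 0.0001266; 1.32 ± 0.27 without the library that stood apart). The co-receptor BAK1 was not called at that time.

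In icals3m 8 of 18 partners rose and BIR3 fell relative to Col-0 at 48 h. At 72 h 8 rose and BIR3 fell, 50% of the list called each time against 13.4% and 11.3% of all genes. PBL31, PAD4, ADR1, ADR1-L1 and RBOHD rose at both times. BIK1, PBL30 and ADR1-L2 did so only at 48 h, and BKK1, BIR1 and SOBIR1 only at 72 h (SOBIR1 1.20 ± 0.26, edgeR adjusted p = 0.001235). Without inducer PAD4 (-0.57), ADR1 (-0.48), ADR1-L1 (-0.28) and PBL31 (-0.25) were already lower in icals3m than in Col-0, and BIR3 higher (0.15). In PD-plug without inducer PAD4 (-0.35) and ADR1 (-0.26) were also called lower than in Col-0, and BIR3 higher (0.17). For SOBIR1 the icals3m libraries at 48 h had 25.9, 31.1 and 29.3 CPM with estradiol and 23.1, 22.2 and 24.2 with mock. At 72 h they had 77.4, 79.3 and 64.4 against 24.1, 23.4 and 37.8. Among 9 pattern receptors outside the family, LYM2 (a chitin-binding protein that mediates plasmodesmal closure), LYK5 and MIK2 rose more than in Col-0 at 48 h in PD-plug, also without the library that stood apart, which is 33.3% of the list. MIK2 was so at 48 h in icals3m (11.1%), and MIK2 and LYK5 at 72 h in icals3m (22.2%). Of 8 defence output genes, WRKY33 differed from the Col-0 response in PD-plug at 48 h (1.62 ± 0.38; 1.64 without the library that stood apart), but its change within PD-plug was 0.48 and did not pass (edgeR adjusted p = 0.2715), with overlapping groups. In icals3m at 48 h WRKY33 and PAD3 exceeded the Col-0 response, 25% of the list.

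The stretches just upstream of the members that rose in PD-plug at 48 h are shown for 8 of them: AtRLP23, which is described first above, and the 7 genes whose pairs share more than 15 bases in a row there. Each is the 250 bases before the annotated gene start, read 5′ to 3′ on the strand of the gene (plus for AtRLP36, minus for the others) from the TAIR10.1 genome sequence of RefSeq. Capitals mark TTGAC, the core of the W-box that WRKY factors bind, on either strand (GTCAA on the other).
AtRLP23, chr2:13862615-13862864: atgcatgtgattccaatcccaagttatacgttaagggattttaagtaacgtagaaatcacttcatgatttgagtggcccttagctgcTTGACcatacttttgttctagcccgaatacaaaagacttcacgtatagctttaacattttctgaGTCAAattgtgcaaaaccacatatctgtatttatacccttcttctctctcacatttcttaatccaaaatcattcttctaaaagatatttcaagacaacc
AtRLP34, chr3:3453986-3454235: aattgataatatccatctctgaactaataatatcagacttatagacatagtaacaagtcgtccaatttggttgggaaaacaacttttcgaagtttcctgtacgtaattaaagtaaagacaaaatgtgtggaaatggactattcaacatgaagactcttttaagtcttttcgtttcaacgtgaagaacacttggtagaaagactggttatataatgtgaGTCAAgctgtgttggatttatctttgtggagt
AtRLP43, chr3:10898901-10899150: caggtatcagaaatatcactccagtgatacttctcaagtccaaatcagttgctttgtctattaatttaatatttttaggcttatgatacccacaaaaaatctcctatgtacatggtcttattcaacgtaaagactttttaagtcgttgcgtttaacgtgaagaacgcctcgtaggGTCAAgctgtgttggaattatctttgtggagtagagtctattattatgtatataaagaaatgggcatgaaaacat
AtRLP36, chr3:8174091-8174340: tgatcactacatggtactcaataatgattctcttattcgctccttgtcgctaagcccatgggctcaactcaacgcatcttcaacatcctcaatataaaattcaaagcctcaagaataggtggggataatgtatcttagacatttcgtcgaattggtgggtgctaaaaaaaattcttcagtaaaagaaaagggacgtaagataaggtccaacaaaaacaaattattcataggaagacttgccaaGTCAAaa
AtRLP37, chr3:8224872-8225121: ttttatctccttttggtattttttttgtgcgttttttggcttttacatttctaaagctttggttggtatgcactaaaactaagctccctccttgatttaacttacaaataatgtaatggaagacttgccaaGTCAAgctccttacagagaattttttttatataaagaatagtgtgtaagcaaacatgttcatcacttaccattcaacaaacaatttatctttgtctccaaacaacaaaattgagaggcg
AtRLP38, chr3:8229620-8229869: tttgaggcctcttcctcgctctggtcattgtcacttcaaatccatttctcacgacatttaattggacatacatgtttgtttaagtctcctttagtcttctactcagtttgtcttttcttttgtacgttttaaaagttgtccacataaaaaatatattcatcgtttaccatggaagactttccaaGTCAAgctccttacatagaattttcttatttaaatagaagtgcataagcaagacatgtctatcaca
AtRLP41, chr3:9112937-9113186: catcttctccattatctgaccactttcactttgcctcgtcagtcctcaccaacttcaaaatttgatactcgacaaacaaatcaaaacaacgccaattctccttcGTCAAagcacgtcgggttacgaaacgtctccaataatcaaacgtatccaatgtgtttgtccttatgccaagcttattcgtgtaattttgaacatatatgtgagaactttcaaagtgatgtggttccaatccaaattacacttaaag
AtRLP42, chr3:9119805-9120054: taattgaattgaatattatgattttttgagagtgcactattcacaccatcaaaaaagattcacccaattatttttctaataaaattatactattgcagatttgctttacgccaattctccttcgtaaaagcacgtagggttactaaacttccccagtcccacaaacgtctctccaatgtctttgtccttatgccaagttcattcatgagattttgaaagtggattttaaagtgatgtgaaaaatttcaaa
The annotated starts of AtRLP23, AtRLP37, AtRLP41 and AtRLP43 are marked as partial, and those of AtRLP23 and AtRLP37 are their first coding bases. These 4 windows may therefore hold transcribed sequence. The window of AtRLP41 overlaps the gene AT3G25011.

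AtRLP23 has 2 cores, AtRLP34, AtRLP43, AtRLP36, AtRLP37, AtRLP38 and AtRLP41 have 1 each and AtRLP42 has none. Across the 45 pairs of the 10 members that rose, the longest identical run had a median of 8 bases, and 4 pairs shared more than 15. Pairs with other members were not measured, so these runs are not shown to be particular to the members that rose. The window of AtRLP53, which was not among them, also holds the run given below for AtRLP34 and AtRLP43. AtRLP36 and AtRLP37 shared 19 bases, ggaagacttgccaaGTCAA, and AtRLP37 and AtRLP38 shared 19, ccaaGTCAAgctccttaca, each run holding a core. AtRLP34 and AtRLP43 shared 16, GTCAAgctgtgttgga, and AtRLP41 and AtRLP42 shared 18 without a core, acgccaattctccttcgt.

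The core was common in the whole family. The annotated start is the first coding base in 9 members, and further members have starts marked as partial. Windows of such members may hold transcribed sequence. TTGAC was found in the 250-base window of 41 of 54 members (75.9%), against 44.9% of 27561 protein-coding genes. It was found in 8 of the 10 members that rose (80.0%) and in 29 of the other 39 tested (74.4%). The longer W-box, TTGACC or TTGACT, was in 53.7% of members and 28.4% of all genes. TGACG, which overlaps the core in TTGACG, was in 22.2% and 18.5%, and CACGTG in 1.85% and 6.46%. These matches describe the letters in the windows and nothing was measured of any factor there.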

How the data were processed

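RNA from leaves of 72 samples was sequenced, and 3 biological replicates were made per group, per the labels' protocols. The authors deposited gene-level estimates (expected counts) that are already whole numbers; the submitters' processing notes name FastQC 0.11.8, Trim Galore 0.5.0, cutadapt 1.7, HISAT2 2.1.0, STAR 2.5, SAMtools 1.4.1, StringTie 1.3.3 and TAIR10, without their roles. The authors deposited a second, STAR-aligned matrix of counts, used here as an alternative. Both hold an excess of small multiples of 4: a count of exactly 4 occurs 40727 times in the main matrix, where 3 occurs 8585 times and 5 occurs 10399 times. Gene counts that overstate the number of molecules in this way would make counting error look smaller, so counts divided by 4 and rounded up were another alternative.

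Groups came from the sample labels. Counts were fitted in R 4.3.3 with edgeR 4.0.16 (quasi-likelihood, TMM, trended dispersion, robust), 24 group means over all 72 libraries with 48 residual degrees of freedom, after filterByExpr with a minimum count of 10 and a minimum total of 15. Benjamini-Hochberg adjustment ran over 21241 genes, and calls are at an adjusted p under 0.05. CPM use TMM-scaled library sizes. DESeq2 1.42.0, RLE size factors, no filter, a replicate block, the libraries of each comparison alone and each library left out were alternatives. The script was tested on simulated data. Replicate correlations were 0.968 to 0.981.

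Gene positions, 50-base word sharing and upstream windows came from the RefSeq TAIR10.1 assembly, matched by locus tag. It carries its own annotation release, which may differ from the one used for counting. Genes named with values are those with known roles, up to 8 per comparison called against Col-0 or at least 2-fold within a line, those called at least 2-fold between DMSO groups, and the extremes per length. The members and the gene lists were chosen with earlier results of these data known.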

Additional observations from a re-analysis of the deposited data

Results flagged for a closer look

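Responses that differed between genotypes by the edgeR test are listed here; chance and the choice of comparisons were not assessed further. Against Col-0, the PD-plug response at 48 h differed by 12.51 for AtRLP43 (a fitted value with mock libraries at 0, so no bound), 5.59 for AtRLP38, 3.50 for AtRLP23, 2.69 for AtRLP41, 2.57 for AtRLP34, 2.13 for AtRLP37, 2.01 for AtRLP36, 1.27 for AtRLP49, 1.24 for AtRLP42, 1.16 for AtRLP46 and -0.60 for AtRLP45 on the log2 scale. At 72 h it differed by 3.58 for AtRLP23 and 1.37 for AtRLP34, and at 12 h by -0.88 for AtRLP49 and -0.66 for AtRLP47.

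For icals3m against Col-0 the differences were -0.92 for AtRLP42 at 12 h, 0.77 for AtRLP1 and -0.64 for AtRLP26 at 48 h, and 11.11 (fitted, no bound) for AtRLP43, 2.92 for AtRLP23 and 1.46 for AtRLP34 at 72 h. Between the lines at 48 h, icals3m minus PD-plug, they were -4.81 for AtRLP23, -3.95 for AtRLP38, -3.40 for AtRLP41, -2.60 for AtRLP34, -1.88 for AtRLP16, -1.84 for AtRLP36, -1.79 for AtRLP37, -1.49 for AtRLP46, -1.14 for AtRLP42, -1.08 for AtRLP48 and -0.62 for AtRLP26. Those against Col-0 share the Col-0 libraries of their time.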

How the results depend on the processing

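Of 1007 values of single members under the alternatives other than leaving out a library, 929 kept direction and call, 77 lost the call and 1 reversed: AtRLP19 between 12 and 24 h in Col-0 mock leaves, at 0.0687 in the STAR-aligned matrix against -0.41. Counts of members called moved by over 1.5 times as follows, and the cause was not tested. With the STAR-aligned matrix they went from 6 to 3 (icals3m, 48 h), 10 to 5 (icals3m, 72 h), 1 to 0 and 2 to 1 (icals3m against Col-0, 12 and 48 h), 2 to 1 (PD-plug against Col-0, 72 h), 11 to 6 and 3 to 1 (Col-0 mock, 24 to 48 and 48 to 72 h). With counts divided by 4 they went from 6 to 11 and 11 to 17 (icals3m and PD-plug, 12 h), 1 to 2 and 2 to 5 (icals3m and PD-plug against Col-0, 12 h) and 2 to 1 (PD-plug against Col-0, 72 h). DESeq2 gave 1 instead of 0 in Col-0 at 48 h and 2 instead of 1 for icals3m against Col-0 at 12 h; no filter gave 1 instead of 2 for PD-plug against Col-0 at 72 h; the 6 libraries alone gave 0 instead of 2 in PD-plug at 24 h.

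Leaving out 1 library at a time, counts of members ranged as follows. Within Col-0 at 12 h from 13 to 16; within icals3m from 3 to 7, 2 to 6, 2 to 7 and 4 to 8 at 12, 24, 48 and 72 h; within PD-plug from 9 to 12, 1 to 2, 8 to 11 and 3 to 5. Against Col-0, icals3m ranged from 0 to 2, 0 to 1, 0 to 4 and 3 to 4, and PD-plug from 1 to 3 at 12 h, 8 to 12 at 48 h and 0 to 2 at 72 h. Between lines the range was 7 to 13 at 48 h and 0 to 1 at 72 h. Among mock comparisons it was 7 to 10 for icals3m, 1 to 4 for PD-plug, and 23 to 25, 7 to 11 and 3 to 3 for the successive times in Col-0. A group left with 2 libraries borrows its spread from the others.

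Same-numbered replicates did not deviate together (0 of 36 correlations over 0.1, range -0.0785 to 0.0857), so the numbers are taken as names only. With the replicate block the count for icals3m against Col-0 at 12 h was 2 instead of 1 and no other count of members moved by over 1.5 times.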
